A study of Mus musculus with 6 samples.

Results

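The nuclear genes for the subunits of the mitochondrial respiratory chain and ATP synthase were followed in the lungs of mice that lack lincRNA-Cox2. Members were the rows of the authors' deposited table whose symbol starts with Ndufa, Ndufb, Ndufc, Ndufs, Ndufv, Uqcr, Atp5 or Cox followed by 4 to 8, or is Sdha, Sdhb, Sdhc or Sdhd, without the Ndufaf assembly factors and symbols ending in -ps. This gave 84 members of 20494 rows: 36 genes of complex I, 4 of complex II, 8 of complex III, 18 of complex IV, 15 of complex V (ATP synthase) and 3 that match by name and are no subunit. The members lie on 19 chromosomes, with at most 10 on one of them.

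The study sequenced RNA from whole lung of untreated male C57BL/6 mice aged 4 months, in 3 libraries from lincRNA-Cox2 knockout mice and 3 from wild type mice. The gene for this long noncoding RNA neighbours Ptgs2, which encodes inducible cyclooxygenase, and the labels used here do not describe the deleted stretch. The authors' deposited table holds the mean of the normalized counts of each genotype and one comparison of the genotypes, with no column for a single library. For each row it gives a log2 fold change shrunken towards 0 with its standard error (SE), a p-value and a p-value adjusted over the table, and a gene is called here where that adjusted p is under 0.05.

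The respiratory chain sits in the inner mitochondrial membrane. Complexes I and II take electrons from NADH and succinate, complex III passes them to cytochrome c, complex IV passes them to oxygen, and complex V uses the resulting proton gradient to make ATP. Most subunits are encoded in the nucleus and imported, a few are encoded by mitochondrial DNA, and several complex IV subunits exist as paralogs whose use differs between tissues. NRF1, the ETS factor GABPA and YY1 are transcription factors known to bind the promoters of many of these nuclear genes.

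Of the 84 members, 70 had at least one promoter in the RefSeq table for GRCm38.p6, which gives 300 bases per start site, 250 of them before it. The NRF1 motif GCGCATGCG was found on either strand in promoters of 8 of the 70 (11.4%), against 1.95% of all 27025 genes in the table and 1.75% of its 32851 promoters. The YY1 motif AAGATGGCG was also found in 8 (11.4%), against 1.64% of genes and 1.4% of promoters. The ETS motif CCGGAAG was found in 16 (22.9%), against 9.93% of genes and 8.86% of promoters. At least one of the motifs was found for 27 of the 70 member genes (38.6%), against 12.7% of genes and 11.4% of promoters. By complex these were 11 of 32 genes in complex I, 2 of 3 in complex II, 3 of 5 in complex III, 3 of 13 in complex IV, 7 of 14 in complex V and 1 of the 3 that are no subunit. A match describes letters in the sequence and does not show binding.

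Windows of some complex IV genes are printed to show what they look like. Cox6b1 and Cox6b2 form a pair of paralogs, as do Cox8a and Cox8b. Cox6a1 stands alone, since no promoter was found for its partner Cox6a2. The 250 bases before the start site are printed for Cox6a1 (chr5:115348959-115349208, minus strand), Cox6b1 (chr7:30626115-30626364, minus strand), Cox6b2 (chr7:4753095-4753344, minus strand), Cox8a (chr19:7217617-7217866, minus strand) and Cox8b (chr7:140900447-140900696, minus strand), all in GRCm38.p6, with motif matches in capitals.
Cox6a1: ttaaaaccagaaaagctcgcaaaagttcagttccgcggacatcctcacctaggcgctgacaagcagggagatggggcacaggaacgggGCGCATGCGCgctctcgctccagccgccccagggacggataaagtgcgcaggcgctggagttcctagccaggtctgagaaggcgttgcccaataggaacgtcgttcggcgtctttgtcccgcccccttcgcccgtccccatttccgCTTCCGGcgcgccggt
Cox6b1: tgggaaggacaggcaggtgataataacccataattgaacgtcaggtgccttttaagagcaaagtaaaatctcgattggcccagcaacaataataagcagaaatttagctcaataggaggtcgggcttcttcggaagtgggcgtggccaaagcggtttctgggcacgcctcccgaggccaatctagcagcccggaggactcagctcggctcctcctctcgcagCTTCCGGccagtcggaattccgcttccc
Cox6b2: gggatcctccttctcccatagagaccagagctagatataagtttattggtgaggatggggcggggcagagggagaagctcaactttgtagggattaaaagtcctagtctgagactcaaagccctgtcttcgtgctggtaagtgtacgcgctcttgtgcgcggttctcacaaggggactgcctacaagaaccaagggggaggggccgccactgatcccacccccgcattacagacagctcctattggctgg
Cox8a: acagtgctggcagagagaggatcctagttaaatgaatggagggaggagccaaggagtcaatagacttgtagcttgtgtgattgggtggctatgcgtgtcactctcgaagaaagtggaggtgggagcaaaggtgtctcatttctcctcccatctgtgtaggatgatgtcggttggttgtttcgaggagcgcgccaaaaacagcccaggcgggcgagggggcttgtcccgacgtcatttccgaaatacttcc
Cox8b: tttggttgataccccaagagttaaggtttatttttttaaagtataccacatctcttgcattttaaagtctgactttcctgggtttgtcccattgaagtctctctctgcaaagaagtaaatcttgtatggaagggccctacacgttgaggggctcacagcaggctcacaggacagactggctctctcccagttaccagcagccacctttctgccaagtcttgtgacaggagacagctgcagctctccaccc
In Cox6a1, a widely expressed subunit gene, the first run of capitals holds the NRF1 motif on both strands, as overlapping matches that begin 162 and 161 bases before the start, and the second is an ETS match on the minus strand that begins 16 bases before it. Cox6b1, the widely expressed partner of the testis gene Cox6b2, holds an ETS match 28 bases before the start. The printed stretches of Cox6b2, Cox8a and the heart and skeletal muscle gene Cox8b hold none of the 3 motifs. For Cox8a the ETS motif is found only when the bases after the start site are included. The pairs are not all alike: the windows of the widely expressed Cox7a2 and Cox7b hold none of the motifs, and neither do those of their partners Cox7a1 and Cox7b2. The printed Cox6a1, Cox6b1 and Cox8a are the only complex IV genes for which a motif was found, 3 of 13. Those of Cox5a, Cox5b, Cox7c and Ndufa4 hold none, and Cox4i1 and Cox4i2 had no promoter entry. The printed genes therefore show no general contrast between widely expressed and tissue-restricted genes.

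Library labels were checked first on the targeted gene. In the authors' deposited table, lincRNA-Cox2 (listed as Lincrna-cox2) averaged 311 normalized counts in wild type and 0.666 in knockout (shrunken log2 fold change -1.74 ± 0.084 SE, adjusted p 4.05e-91, 3 libraries per genotype). Only 2 reads make up that knockout value. The tissue label was checked on 6 genes of lung epithelium and lung endothelium, all of which had an adjusted p, among them Sftpc, the surfactant protein C gene, at 82187 and 83359 normalized counts in wild type and knockout, and Scgb1a1, the club cell secretory protein gene, at 50719 and 51324. The normalized means summed to 3.71e+07 in wild type and 3.68e+07 in knockout, which are scaled sums and not the depth of a library. Labels state no batch and no pairing. The library titles carry serial numbers that alternate between the genotypes, and what they stand for is not stated. The p-values set each difference between the genotypes against variation estimated from these libraries.

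No respiratory chain member was called in the knockout lung. The authors' deposited table gave adjusted p-values for 83 of the 84 members, and 0 of 83 were under 0.05, against 1.09% of the 16902 rows with an adjusted p (0.592% higher and 0.497% lower in knockout). The smallest adjusted p of a member was 0.365. The unadjusted p was under 0.05 for 3 members of 83 (3.61%), Ndufb10 on the higher side and Atp5sl and Cox8b on the lower, against 8.47% of all rows (4.43% higher and 4.04% lower). The column names of the table are those of DESeq2, and no second count model could be run on group means. Because a whole lung holds many cell types, fewer cells of a type and less RNA per cell cannot be told apart in any of these values.

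The differences between the genotypes were small in either direction. The log2 ratio of knockout over wild type means had a median of -0.0096 over the 83 tested members, with quartiles of -0.046 and 0.020, against a median of -0.0013 and quartiles of -0.071 and 0.072 over all rows with an adjusted p. Of the 83, 47 had a lower and 36 a higher mean in knockout (56.6% lower, against 50.6% of all rows with an adjusted p). The median of the members turned to 0.0013, and 41 were lower, once both genotypes were scaled to equal sums, so no direction can be read from it. Summed over all members, the wild type means came to 229483 and the knockout means to 228001 normalized counts, 99.4% of wild type, and to 0.618% and 0.619% of the whole table. The spread was also narrow next to that of other genes: 73 of 83 members (88.0%) had a log2 ratio between -0.1 and 0.1, a change of up to 1.07-fold, against 62.4% of all rows. The tested members are well expressed, with means between 142.8 and 18981 normalized counts over the 6 libraries, and well expressed genes vary less. Among rows with a mean of at least 1000, 92.8% of 69 members and 76.2% of 8166 rows lay within that bound.

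The standard errors are those of the shrunken fold changes, and do not show how large a ratio of means could have gone unseen. They ran from 0.041 to 0.084 over the 83 members in the authors' deposited table, with a median of 0.062 on the log2 scale. The 95% bounds of the shrunken fold changes (from the SE, by a normal approximation) held 0 for 80 of the 83 members. They lay within 0.25 of 0, a change of up to 1.19-fold, for 78 of 83, and the outermost bounds were -0.33 for Cox8b and 0.29 for Ndufb10. Shrinkage pulls these values towards 0, so the bounds are not bounds on the ratio of means. The log2 ratio of means of Cox8b, -0.48, lay outside its own bounds of -0.33 and -0.013. Among the 99 called rows with a mean of at least 1000, the smallest log2 ratio had a size of 0.17 (1.13-fold), and Ndufb10 was the one member above that mean to reach it. Cox8b, Cox7a1 and Atp5sl also reached it, at means under 1000.

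**Figure D1:**
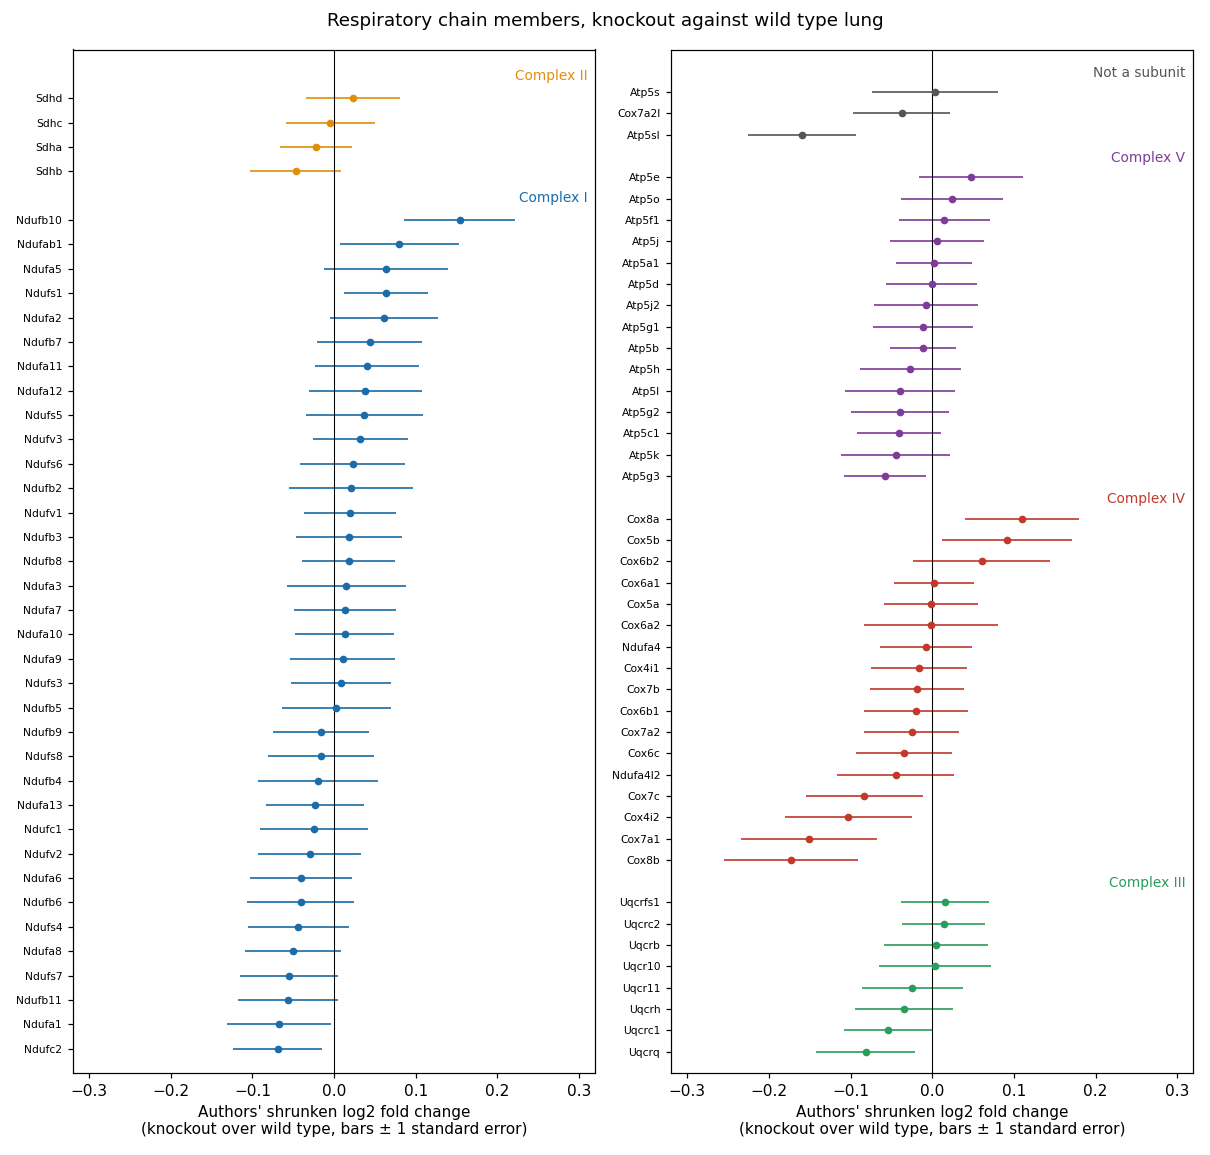
Shrunken log2 fold change of 82 of the 83 tested members in the authors' comparison of 3 knockout with 3 wild type libraries (x axis, log2, above 0 is higher in knockout), ordered within each complex, with bars of 1 SE to either side. Most bars cross 0, and Ndufb10, Atp5sl and Cox8b stand farthest out, with adjusted p-values of 0.437, 0.365 and 0.517.

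Complex I, the NADH dehydrogenase, had 0 of 36 members called, 21 with a higher and 15 with a lower mean in knockout, and a median log2 ratio of 0.014. The knockout sum of its genes was 100.2% of wild type. Its 7 nuclear core genes, most of which encode subunits that carry the flavin and the iron-sulfur clusters or line the quinone site, had log2 ratios from -0.06 to 0.07. Ndufs1, the largest of these subunits, had means of 3109 in wild type and 3265 in knockout, and Ndufs7, which holds the last iron-sulfur cluster before the quinone, had 1833 and 1752. The 29 accessory genes ran from -0.08 to 0.19, with 18 higher and 11 lower.

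Ndufb10, an accessory subunit of the membrane arm, had the highest ratio of all tested members. It lies on chromosome 17 from 24722060 to 24724478 (mm10). Its mean was 2010 normalized counts in wild type and 2295 in knockout, and the authors' deposited table gives a shrunken log2 fold change of 0.15 ± 0.067 (SE), a p of 0.0228 and an adjusted p of 0.437. The 95% bounds of that change were 0.021 and 0.29. Within complex I, Ndufab1, the mitochondrial acyl carrier protein, had the next highest ratio, with 751 and 808. The lowest ratio of complex I was that of Ndufa1, a small membrane-arm subunit encoded on the X chromosome, with means of 1266 and 1197, a log2 ratio of -0.08. None of these differences passed the adjusted test.

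Complex II, succinate dehydrogenase, is the one complex of the chain that is also a TCA cycle enzyme, and it had 0 of 4 members called. Sdha, the flavin subunit, had means of 9350 in wild type and 9196 in knockout. Sdhb, the iron-sulfur subunit, had the lowest log2 ratio of the complex, -0.05, with means of 3255 and 3136. Sdhc and Sdhd anchor the enzyme in the membrane. Sdhc had 2950 and 2939, and Sdhd, with the highest ratio of 0.03, had 3203 and 3262. The 4 sums together were 98.8% of wild type in knockout.

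Complex III, which hands electrons from ubiquinol to cytochrome c, had 0 of 8 members called and a median log2 ratio of -0.012. Uqcrfs1, the Rieske iron-sulfur protein, had the highest ratio, 0.02, with means of 2515 in wild type and 2545 in knockout. The large core proteins that face the matrix gave 4609 and 4417 for Uqcrc1 and 5452 and 5510 for Uqcrc2. The lowest ratio was that of Uqcrq, a small subunit, with 1705 and 1595 (log2 ratio -0.10, adjusted p 0.855 in the authors' deposited table).

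Complex V had 0 of 15 members called, 10 with a lower and 5 with a higher mean in knockout, and a median log2 ratio of -0.012. Atp5b and Atp5a1, the catalytic beta and the alpha subunit, had the highest means of all members, 19062 in wild type and 18900 in knockout for Atp5b and 17155 and 17175 for Atp5a1. Over the 5 genes of the F1 head and its stalk, the knockout sum was 99.5% of wild type. Among them was Atp5e, the epsilon subunit, with the highest ratio of the complex, 0.06 (2495 and 2596). The 4 genes of the peripheral stalk summed to 100.3%. The c ring, which turns as protons pass, is built from one protein encoded by 3 genes, and all 3 had lower means in knockout: 1310 and 1298 for Atp5g1, 1774 and 1717 for Atp5g2, and 4296 and 4110 for Atp5g3, the lowest ratio of the complex at -0.06. Their sum was 96.6% of wild type, and none had an adjusted p under 0.9.

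Complex IV, cytochrome c oxidase, held the widest spread of ratios. Of its 17 tested members 0 were called, 13 had a lower and 4 a higher mean in knockout, and the median log2 ratio was -0.022. The 11 genes that are not tissue-restricted ran from -0.11 for Cox7c to 0.14 for Cox8a, and their sum was 100.2% of wild type. Cox8a, the widely expressed subunit 8 gene, had means of 3215 in wild type and 3544 in knockout (p 0.114 and adjusted p 0.764, from the authors' deposited table). Cox5b, a zinc-binding subunit, had 1533 and 1687. Cox4i1, the gene for the largest nuclear-encoded subunit, had 6191 and 6110, Cox5a had 1923 and 1922, and Cox6c had 3462 and 3367.

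The 6 tested tissue-restricted genes of complex IV were taken as Cox4i2, Cox6a2, Cox6b2, Cox7a1, Cox8b and Ndufa4l2. They had 5 lower means and 1 higher mean in knockout, and 0 were called. With Cox7b2 their sum was 92.5% of wild type (3684 and 3406 normalized counts). Cox4i2, which is not a muscle form, held the largest part of that sum (1583 and 1428). Cox8b, the heart and skeletal muscle form of subunit 8, lies on chromosome 7 from 140898945 to 140900446 (mm10) and had the lowest ratio of the tested members. Its mean was 166.2 in wild type and 119.5 in knockout, 1.39-fold lower, and the authors' deposited table gives a shrunken log2 fold change of -0.17 ± 0.082 (SE), a p of 0.0339 and an adjusted p of 0.517. Cox7a1, the muscle form of subunit 7a, had 237.6 and 183.4 (p 0.0694, adjusted p 0.666). Cox6a2, the muscle form of subunit 6a, had 420.2 and 419.5, a log2 ratio of -0.0024.

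Muscle markers were read beside these genes. Of 13 tested cardiac muscle markers, a list of heart genes that lung samples can carry from the pulmonary veins and atria, 12 had lower means in knockout, 0 were called and 1 had an unadjusted p under 0.05. Their log2 ratios ran from -1.84 to 0.17 with a median of -0.25, and they summed to 26146 in wild type and 21675 in knockout. The exception was Myh7, at 1765 and 1987. Of 4 tested skeletal muscle markers 2 were lower and 2 higher, with log2 ratios from -0.44 to 0.68. Of these 0 were called, and the sum was 725.4 and 602.0 over the list. The one with an unadjusted p under 0.05, Atp2a1, was higher in knockout, at 57.9 and 92.8 (p 0.0496). Ucp1, the defining brown fat gene, had 2 reads in the 3 wild type and 3 reads in the 3 knockout libraries. The part of these cells in the Cox8b and Cox7a1 values was not tested.

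Cox4i2, the form of subunit 4 known from lung and from pericytes and for its part in oxygen sensing, had means of 1583 in wild type and 1428 in knockout (log2 ratio -0.15, adjusted p 0.865 in the authors' deposited table). Ndufa4l2, a paralog of the complex IV subunit Ndufa4 that is known to be induced by hypoxia, had 1011 and 971.1, and Ndufa4 had 3526 and 3504. All 8 smooth muscle and pericyte markers had lower means in knockout as well, with a median log2 ratio of -0.21 and sums of 36061 and 31318. Of these 8, 0 were called and 2 had an unadjusted p under 0.05, with a smallest adjusted p of 0.184 in the authors' comparison. All 7 adipocyte markers were also lower, with a median of -0.76, 0 called, and sums of 5944 and 4049. What share of the Cox4i2 value goes with either cell type was not tested.

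Over the union of exons, the testis forms had the lowest levels per kilobase of complex IV. Over the longest transcripts this held in wild type, where Cox6b2 had 451, Cox8b 462 and Cox7a1 490. In knockout it held only for Cox7b2, while Cox6b2, at 486, stood above Cox7a1 (378) and Cox8b (332). Cox6b2 had means of 263.8 and 284.3, against 3231 and 3178 for Cox6b1. Cox7b2, the one member without an adjusted p, had 6 reads in wild type and 2 in knockout. Over libraries that cannot be named, these were 3, 1 and 2 in wild type and 1, 1 and 0 in knockout. Reads at that level do not give a direction. Its partner Cox7b had 2422 and 2385.

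Levels of different genes were compared per kilobase of exon, since a longer transcript yields more reads. The median member had 1240 normalized counts per kilobase in wild type. In complex I the level per kilobase ran from 109 for Ndufab1 to 4077 for Ndufb11, a small membrane-arm subunit, and in complex II from 908 for Sdhc to 2602 for Sdhd. Complex III ran from 931 for Uqcrq to 3060 for Uqcrh, the hinge protein beside cytochrome c1, and complex V from 247 for Atp5l, the g subunit, to 5472 for Atp5a1. In complex IV the highest level per kilobase was that of Cox6a1, 5579, and the lowest that of Cox7b2, 3.71, followed by Cox6b2 at 238. The levels depend on the length used. Ndufab1 stayed the lowest of complex I, at 216 with its principal transcript, while Atp5l was no longer the lowest of complex V, at 2921. With principal transcripts the highest levels were 9949 for Atp5b and 8093 for Cox4i1.

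**Figure D2:**
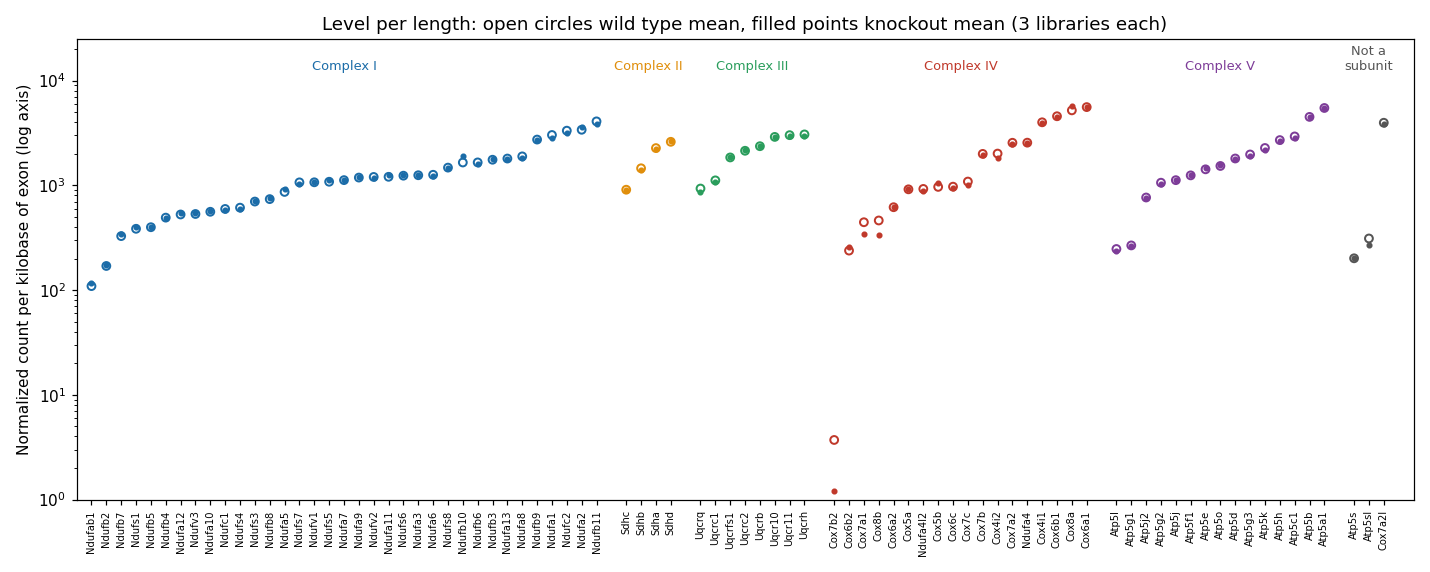
Normalized count per kilobase of exon (y axis, log axis) for 83 of the 84 members, grouped by complex and ordered by the wild type value, with open circles for the wild type mean and filled points for the knockout mean of 3 libraries each. Knockout points fall inside or at the edge of nearly all circles, and Cox7b2, which rests on 6 and 2 reads, lies far below the rest.

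Within each isoform pair the tissue-restricted gene was given as its share of the pair's level per kilobase. Cox4i2 made up 33.5% of Cox4i2 and Cox4i1 together in wild type and 31.5% in knockout, the highest share of the complex IV pairs. Counted over the longest transcripts that share was 21.1% and 19.6%. Ndufa4l2 made up 26.6% and 25.9% of its pair with Ndufa4, and 26.2% and 25.6% over the longest transcripts, where it stood above Cox4i2. The muscle genes were lower: Cox7a1 made up 14.8% and 12.1% of its pair with Cox7a2, whose means were 2405 and 2357. Cox6a2 made up 9.97% and 9.94% of its pair with Cox6a1 (3916 and 3922). Cox8b made up 8.16% and 5.48% of its pair with Cox8a, with a lower mean of Cox8b and a higher mean of Cox8a in knockout, neither of them called. Cox6b2 made up 4.96% and 5.41%, and Cox7b2 0.185% and 0.0612%. Among the c ring genes Atp5g3 held 59.8% and 59.4%, Atp5g2 32.1% and 32.3%, and Atp5g1 8.09% and 8.33%. The share of Atp5g1 depends on its long exon union of 4912 bases, against 1675 for Atp5g2 and 2181 for Atp5g3. These shares rest on group means and have no error of their own.

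**Figure D3:**
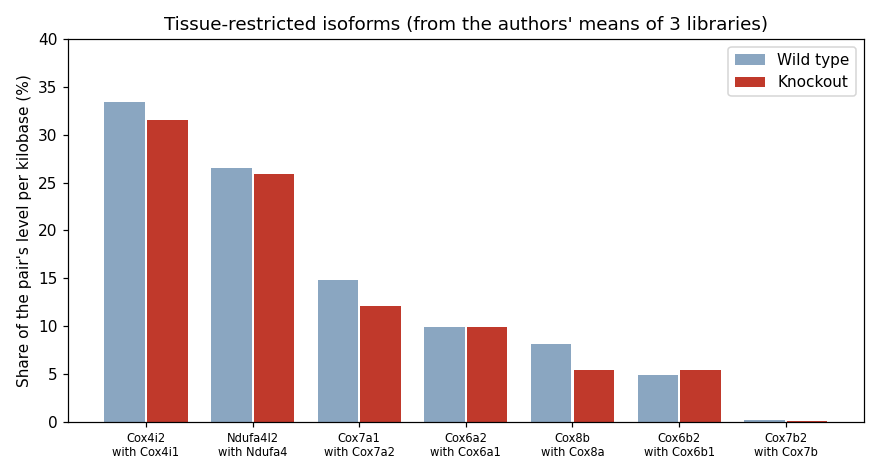
Share of the tissue-restricted gene in the summed level per kilobase of each complex IV isoform pair (y axis, percent), from the mean of 3 wild type (blue) and 3 knockout (red) libraries, with no error bars because the table holds no library values. Cox4i2 and Ndufa4l2 hold the highest shares in both genotypes, and the widest differences are those of Cox7a1 (14.8% and 12.1%) and Cox8b (8.16% and 5.48%).

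The 3 genes that match by name and are no subunit differed among themselves. Atp5sl, listed as Dmac2 in newer annotation and known as a factor for assembly of the complex I membrane arm, lies on chromosome 7 from 25619414 to 25625551 (mm10). It had means of 938.6 in wild type and 818.4 in knockout, and the authors' deposited table gives a shrunken log2 fold change of -0.16 ± 0.066 (SE), a p of 0.0159 and an adjusted p of 0.365, the smallest of the members. Cox7a2l, studied as a supercomplex assembly factor and known to be shortened and inactive in that role in C57BL/6 mice, had 5846 and 5669. Atp5s, a factor B-like protein, had 409.9 and 411.3.

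**Figure D4:**
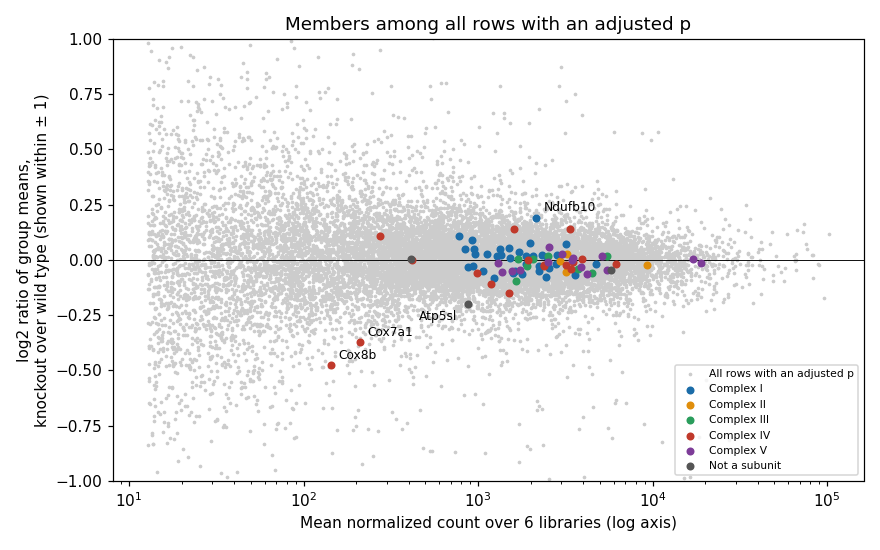
Log2 ratio of the group means (y axis, above 0 is higher in knockout) against the mean normalized count over 6 libraries (x axis, log axis) for the 83 tested members in colour and all 16902 rows with an adjusted p in grey, of which 85 lie beyond a ratio of 1 in size and are not shown. Most members lie close to 0, and Cox8b and Cox7a1, which stand lowest, are also those with the lowest means.

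LincRNA-Cox2 and Ptgs2 lie on chromosome 1, and no member on that chromosome was called. From Ptgs2 (150100031 to 150108227, mm10) Sdhc lies at 21.02 Mb. Ndufa10 lies at 57.63 Mb (1862 and 1882), Ndufs1 at 86.92 Mb, Ndufb3 at 91.5 Mb (1339 and 1359) and Cox5b at 113.41 Mb.

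Other genes of mitochondria and energy metabolism were read from 10 lists with 270 distinct tested genes, of which 0 were called, against 1.09% of all rows, and 7 (2.59%) had an unadjusted p under 0.05, against 8.47%. Cytochrome c (Cycs) had 1602 in wild type and 1593 in knockout, and cytochrome c1 of complex III (Cyc1) 2847 and 2881. In their list of 16 tested electron carriers and ubiquinone synthesis genes, 9 were lower, from Coq9 (1648 and 1531) to Pdss2 (191.5 and 224.4). Among 45 tested assembly factors 21 were lower, from Tmem242, a factor for ATP synthase assembly (2032 and 1730, p 0.00345, adjusted p 0.158 in the authors' deposited table), to Coa4, a complex IV factor (240.7 and 278.7).

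Regulators of mitochondrial gene expression gave 14 of 27 tested genes with a lower mean, 0 called and 2 with an unadjusted p under 0.05. Those were Mterfd2, needed for mitochondrial ribosome assembly, with 1422 and 1218 (p 0.00162, adjusted p 0.0935, from the authors' deposited table), and Esrra, a nuclear receptor of energy metabolism genes, with 1483 and 1334 (p 0.0380, adjusted p 0.535). Ppargc1a, the coactivator PGC-1alpha, had the highest ratio, with 359.3 and 426.1 (adjusted p 0.734). The factors whose motifs were counted gave 1574 and 1450 for Nrf1, 3421 and 3529 for Gabpa, and 2641 and 2690 for Yy1. Tfam, which packages and transcribes mitochondrial DNA, had 1487 and 1502.

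The remaining lists held 0 called genes, and 4 with an unadjusted p under 0.05, of which Mrps5 and Timm17a (1246 and 1116) were lower in knockout and Eci1 and Gsr higher. Of 76 mitochondrial ribosomal protein genes 31 were lower, from Mrps5 (923.0 and 812.7) to Mrpl52 (1042 and 1152). The list of the TCA cycle and the pyruvate dehydrogenase complex gave 11 of 19 lower. It ran from Dlat (2174 and 2056) to Pdhx (863.8 and 926.8), both of the pyruvate dehydrogenase complex. Protein import gave 12 of 22, from Timm8a1 (256.9 and 229.0) to Timm10 (224.9 and 246.1). Fatty acid oxidation gave 10 of 19 lower, from Cpt1b, the muscle carnitine palmitoyltransferase (210.2 and 166.5), to Eci1 (1372 and 1535). Carriers and uncoupling proteins gave 8 of 16, from Ucp3 (163.8 and 149.5) to Mpc1 (2140 and 2237). Antioxidant genes of mitochondria gave 2 of 10, from Glrx5 (1117 and 1059) to Gsr, glutathione reductase (3082 and 3395, adjusted p 0.266), and glycolysis 12 of 21, from Eno3 (869.2 and 769.0) to Hk3 (258.7 and 285.6). The list medians lay between -0.020 for protein import and 0.024 for antioxidants.

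**Figure D5:**
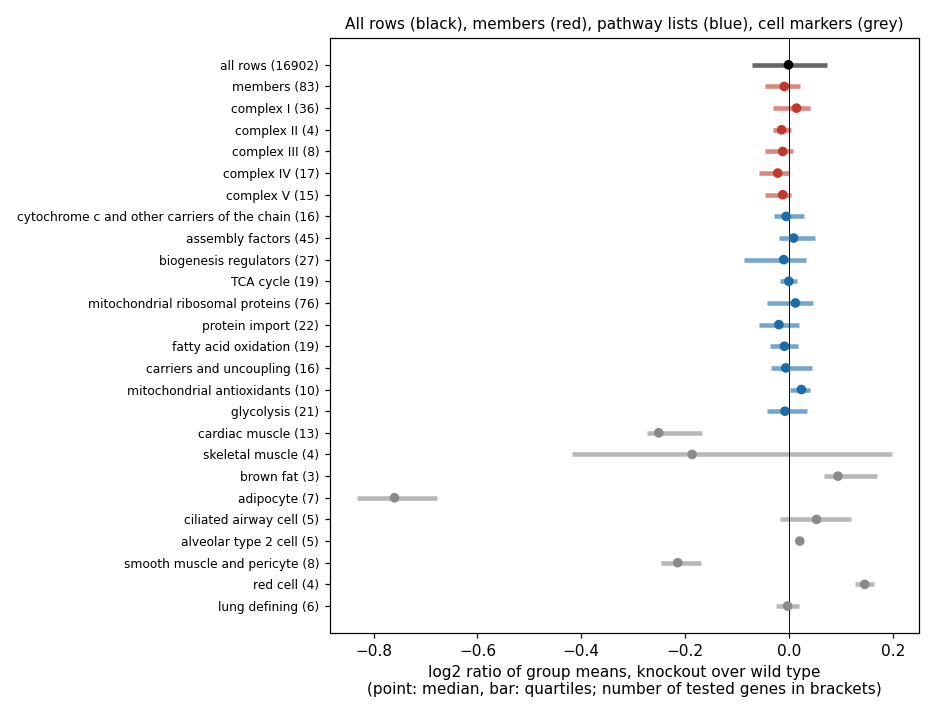
Median (point) and quartiles (bar) of the log2 ratio of group means, knockout over wild type (x axis), for all rows (black), members and their complexes (red), other pathway lists (blue) and cell type markers (grey), with the number of tested genes in brackets. The complexes and pathway lists have medians between -0.022 and 0.024, while the adipocyte, cardiac muscle and smooth muscle markers have medians of -0.76, -0.25 and -0.21.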

How the data were processed

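Libraries of whole lung RNA, 3 per genotype, were made from 500 ng with the TruSeq RNA kit v2 and read as 50 bp pairs, per the labels' protocols. STAR 2.5.1b, Bowtie2, bedtools, SAMtools, DESeq2 and mm10 are named in the submitters' processing notes, without a role. The kit does not mark strand, and how reads were counted is not given in the sources used here. Exons of 30 members overlap another annotated gene, among them Cox4i1 with Emc8, Ndufa4l2 with Shmt2, Cox6a2 with Itgad and Atp5j with Gabpa, and many members have processed copies in the genome, so reads of such genes may be shared.

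Per the file headers, the authors deposited mean normalized counts, a signal scaled per library. They also deposited a shrunken log2 fold change with its SE, a Wald score (the fold change over its SE), and p-values, raw and adjusted. Of the 20494 rows, 3592 had no adjusted p, and the lowest mean with one was 12.8. No counts of libraries are in the table, so no model was fitted and calls are those of the authors at an adjusted p under 0.05.

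Log2 ratios of the deposited group means, levels per kilobase (union of GENCODE M21 exons, all 84 members matched, 1 of them by a RefSeq synonym), shares and motif matches were computed with Python 3.11.15, pandas 2.3.3 and numpy 2.4.6. Reads of low rows were derived from group means with relative size factors, and the procedure was tested on simulated data. The members, lists, core and accessory groups and the rule for named genes were chosen with earlier results of these data known. That rule names the targeted gene, members with an unadjusted p under 0.05, the highest and lowest ratio (mean of at least 50) and level per kilobase in each complex, isoform pairs, members on chromosome 1 and non-subunits, and the extremes of each pathway list. Cox7c, Cox5a, Cox6c, Ndufs7 and the core and head subunits beyond it were added after their values were seen. Myh7 and Atp2a1, which had the highest ratio of the cardiac and the skeletal muscle list, are named. The genes with the lowest ratio of the marker lists are not named. The values of 1 member are not reported here, and it is counted in the totals. None of the 15 mitochondrially encoded genes was found under its mt- symbol, and Cox8c was not analysed here. Of the other marker lists, ciliated cells had 2 of 5 tested genes lower, alveolar type 2 cells 1 of 5, red cells 0 of 4, brown fat 0 of 3 and lung-defining genes 3 of 6, with 0 called.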

Additional observations from a re-analysis of the deposited data

How the results depend on the processing

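No member was called at an adjusted p under 0.01, 0.05 or 0.1, and 3 had an unadjusted p under 0.05. In the other pathway lists 0 genes were called at 0.05, 1 (Mterfd2) at an adjusted p under 0.1 and 7 at an unadjusted p under 0.05; these 2 settings were chosen after seeing the data. The median level per kilobase in wild type moved from 1240 over the union of exons to 1823 over the longest transcript and 2446 over the principal transcript, the last also chosen after seeing the data. With principal transcripts, the wild type and knockout shares were 21.1% and 19.6% for Cox4i2, 15.8% and 15.3% for Ndufa4l2, 7.94% and 8.63% for Cox6b2 and 3.21% and 3.31% for Atp5g1. The principal transcript of Atp5g1 has 4715 bases, against 731 for Atp5g2 and 723 for Atp5g3. Shrinkage moved the log2 ratio of Cox8b from -0.48 to -0.17 and that of Cox7a1 from -0.37 to -0.15. Scaling to equal sums shifted all log2 ratios by 0.011 and turned the sign of 6 tested members, the largest of which had a ratio of 0.0096 in size, and centring on the median of all rows turned 2. No paired analysis was possible because the table holds no library values, which also leaves no way to leave out a library. Depth per library is unknown from the table.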

Other observations

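A row named Cox2 may be a mitochondrially encoded subunit of complex IV or another gene, and it was not used. The row Cytb matches the mitochondrially encoded cytochrome b of complex III by its RefSeq symbol. Cytb was picked after its value was seen and had the highest mean of the table. Its mean was 98954 normalized counts in wild type and 107435 in knockout, a log2 ratio of 0.12, with an adjusted p of 0.821 in the authors' deposited table. The 8 Uqcr members of the same complex had a median log2 ratio of -0.012. Cyc1, a nuclear-encoded gene of that complex outside the member rule, had a log2 ratio of 0.017. Emc8, whose exons overlap those of Cox4i1 on the other strand, had 2089 and 2036.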
